A study of Mus musculus with 17 samples.

Results

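The proteasome genes of the hippocampus were compared between mice kept awake for 5 h and mice left undisturbed. Genes were taken by symbol: every gene read by a probe set with exactly 1 gene symbol, where that symbol began with Psma, Psmb, Psmc, Psmd, Psme, Psmf or Psmg and a digit. This gave 49 of the 18193 genes measured, read by 103 of 34945 single-symbol probe sets. Each gene was represented by its brightest probe set, the one with the highest mean over all arrays. The symbol rule also took Psmc3ip, a meiotic recombination gene, and Psme3ip1, which encodes a partner of Psme3. Neither is a subunit. Psme2 shared its only probe set here with Psme2b and was not analysed.

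Gene expression had been measured on Affymetrix whole-genome mouse arrays, 1 animal per array. A probe set is a group of short probes for the same transcript, and many genes have several. The sleep-deprived group held 8 male C57BL/6J mice that were kept awake for 5 h in their home cages by gentle handling, and the undisturbed group 9 male C57BL/6J mice left alone in theirs. All were housed singly on a cycle of 12 h light and 12 h dark, and were handled daily for 6 days beforehand. The labels give an age of 2 months for every animal and the growth protocol a range of 2 to 4 months. Loss of sleep and handling came together in the sleep-deprived group and cannot be told apart here.

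The proteasome degrades proteins tagged with ubiquitin. Its 20S core is a barrel of alpha and beta rings whose proteolytic sites lie on the beta subunits Psmb5, Psmb6 and Psmb7. The 19S cap binds the ubiquitin chain, removes it and unfolds the substrate with a ring of ATPases. Other caps, the PA28 and PA200 activators, bind the same core. In neurons, proteasomal degradation at synapses takes part in lasting synaptic plasticity and memory.

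The stretches upstream of 5 of these genes show what the text refers to: Psme4, the 1 gene that passed the test, Psmd2, which came next by adjusted p, Psmd11, whose probe sets disagreed, Psmd5, with the largest positive difference, and Psmb5, a catalytic subunit. Each is the 250 bases before the RefSeq gene start in GRCm38.p6, written 5′ to 3′ along the gene's strand. Capitals mark matches on either strand to CCGGAAG, the core bound by ETS transcription factors, or to TGACNNNGC, the core of the antioxidant response element bound by Nfe2l1 and Nfe2l2. The Psme4, Psmd2 and Psmd11 stretches each hold 1 match to CCGGAAG, Psmb5 holds 1 match to TGACNNNGC, and Psmd5 holds neither. CCGGAAG was chosen after the stretches had been read, and these 5 do not show that it goes with the direction of a difference. Of the 41 members with a stretch, differences were negative for 10 of 13 with CCGGAAG and for 17 of 28 without it. It stood in 31.7% of the 41, beside 16.2% of other array genes with a mean log2 signal of at least 9.
Psme4 (chr11:30771525-30771774, + strand): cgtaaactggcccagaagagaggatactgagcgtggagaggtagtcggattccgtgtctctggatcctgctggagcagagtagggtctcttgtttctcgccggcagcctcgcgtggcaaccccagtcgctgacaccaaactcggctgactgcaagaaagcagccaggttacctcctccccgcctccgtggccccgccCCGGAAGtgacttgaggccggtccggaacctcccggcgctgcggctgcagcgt
Psmd2 (chr16:20651402-20651651, + strand): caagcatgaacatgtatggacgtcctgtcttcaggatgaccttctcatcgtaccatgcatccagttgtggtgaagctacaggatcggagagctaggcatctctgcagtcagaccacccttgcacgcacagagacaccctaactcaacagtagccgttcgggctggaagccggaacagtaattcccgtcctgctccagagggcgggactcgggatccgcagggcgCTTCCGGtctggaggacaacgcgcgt
Psmd11 (chr11:80428365-80428614, + strand): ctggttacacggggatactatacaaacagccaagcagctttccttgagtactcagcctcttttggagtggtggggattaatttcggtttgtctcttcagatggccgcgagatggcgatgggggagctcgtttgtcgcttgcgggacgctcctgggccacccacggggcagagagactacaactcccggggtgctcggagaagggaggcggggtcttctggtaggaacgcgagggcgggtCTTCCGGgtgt
Psmd5 (chr2:34870963-34871212, - strand): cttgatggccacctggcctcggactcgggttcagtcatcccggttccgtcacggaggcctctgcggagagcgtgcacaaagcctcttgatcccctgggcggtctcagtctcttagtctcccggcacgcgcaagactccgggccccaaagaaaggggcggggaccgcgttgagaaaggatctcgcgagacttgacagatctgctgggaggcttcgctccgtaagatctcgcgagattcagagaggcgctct
Psmb5 (chr14:54617996-54618245, - strand): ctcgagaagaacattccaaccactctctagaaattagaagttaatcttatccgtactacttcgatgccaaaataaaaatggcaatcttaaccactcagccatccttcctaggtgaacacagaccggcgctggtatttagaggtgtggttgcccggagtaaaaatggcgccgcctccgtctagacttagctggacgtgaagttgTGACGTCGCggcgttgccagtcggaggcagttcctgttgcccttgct

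Psme4 was the only proteasome gene that passed the test, and it was lower after sleep deprivation. It encodes PA200, a cap of the 20S core best known for its link to acetylated histones in the testis. Its brightest probe set had a lowest, median and highest log2 signal of 9.15, 9.21 and 9.46 in the 8 sleep-deprived animals, against 9.34, 9.44 and 9.61 in the 9 undisturbed animals. Of the sleep-deprived animals 7 lay below the lowest undisturbed animal and all 8 below the undisturbed mean, and 1 reached into the undisturbed range. The mean was 9.24 ± 0.107 (SD, n = 8) in sleep-deprived and 9.46 ± 0.0945 (SD, n = 9) in undisturbed animals, and every mean given below is over the same animals with its SD. Psme4 was 1.17-fold lower after sleep deprivation (log2 difference -0.22, SE 0.050, limma adjusted p over all genes = 0.0154). In the same fit 3.97% of all genes were called, 2.73% as lower, so that 1 lower gene of 49 is no more than the background.

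The other bright probe sets of Psme4 gave the same picture. Psme4 was read by 6 probe sets. At the level of 45037 probe sets, of which 1.81% were called and 1.23% called lower, its 3 brightest were the only ones of the 103 proteasome probe sets that passed. They lay at -0.22, -0.22 and -0.21 on the log2 scale (limma adjusted p = 0.0276, 0.0485 and 0.0305 at that level). Of these 1426824_at ran from 8.36 to 8.62 in sleep-deprived animals and from 8.53 to 8.81 in undisturbed animals. The remaining 3 were dim, with means between 4.04 and 5.28, and lay at -0.11, 0.055 and 0.0012 without passing. The most variable of the 6 was one of these dim sets, and the gene was not called when it (0.055, adjusted p = 0.805) or the mean of all 6 (-0.12, adjusted p = 0.181) stood for it. The test of the difference in effect between the brightest and the dim sets above 0 did not pass (limma adjusted p over all pairs = 0.0922 and 0.123), though 1 Psme4 pair passed without sleep-deprived replicate 3 or 8. Without undisturbed replicate 1 or 4, or sleep-deprived replicate 3 or 5, 0 proteasome probe sets passed over all probe sets.

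**Figure D1:**
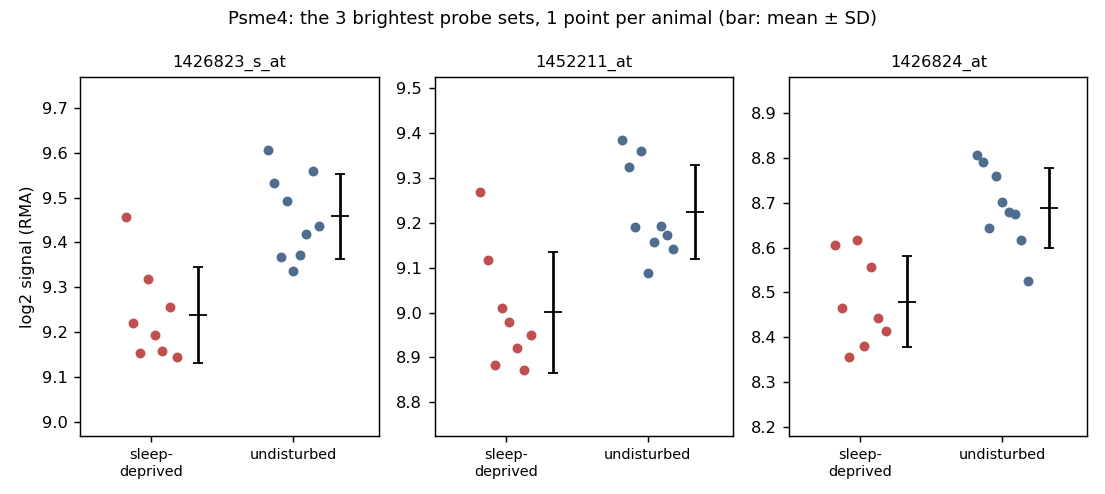
Log2 signal of the 3 brightest Psme4 probe sets in each animal, with sleep-deprived animals on the left and undisturbed animals on the right of each panel. Bars give mean ± SD (n = 8 and n = 9) and in the first panel 7 of 8 sleep-deprived animals lie below every undisturbed animal.

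Psme4 kept its call without any 1 of the 17 arrays, with log2 differences between -0.25 and -0.20 and adjusted p between 0.00413 and 0.0328. The arrays hold whole hippocampus, so fewer cells that express a gene and less RNA per cell cannot be told apart. The 8 neuronal markers had a mean log2 signal of 11.6 in sleep-deprived and 11.7 in undisturbed animals, and none was called. These markers show neural tissue and do not single out the hippocampus. The choroid plexus markers, 8 of 10 measured, varied most between animals. Their mean ran from 5.64 to 7.63 in sleep-deprived and from 5.72 to 7.37 in undisturbed animals, and none was called. With that mean as a covariate Psme4 lay at -0.21 (adjusted p = 0.0279). The RNA quality measure, the 3′ minus the 5′ signal of Gapdh and actin controls, ran from 0.199 to 0.417 in sleep-deprived and from 0.210 to 0.302 in undisturbed animals, and as a covariate left Psme4 at -0.22 (adjusted p = 0.0196).

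The other regulators of the core did not pass. Psme1, a PA28 subunit that binds the ends of the core, had a lowest, median and highest signal of 9.68, 9.74 and 9.86 in sleep-deprived animals and 9.69, 9.87 and 9.96 in undisturbed animals (log2 difference -0.10, SE 0.042, adjusted p = 0.185). Of the undisturbed animals 6 lay above the highest sleep-deprived animal. Psmf1 encodes PI31, first described as an inhibitor of the core. It averaged 8.90 ± 0.0698 in sleep-deprived and 9.00 ± 0.0760 in undisturbed animals (log2 difference -0.095, SE 0.042, adjusted p = 0.224). Its dimmer probe sets 1424369_at and 1424370_s_at both lay at -0.18, a dim set of mean signal 4.55 lay at 0.073, and 1424369_at did not pass (limma adjusted p = 0.0584 at the probe-set level). On 1424369_at all 8 sleep-deprived animals, at 6.97 to 7.27, lay below the undisturbed mean, and the undisturbed animals ran from 7.19 to 7.47. Psme3, the nuclear PA28 subunit, averaged 9.17 ± 0.0417 in sleep-deprived and 9.16 ± 0.0396 in undisturbed animals (log2 difference 0.0082, SE 0.034, adjusted p = 0.926), with a 95% interval of 0.957- to 1.06-fold. That interval holds for its brightest probe set only. The dimmer Psme3 sets 1418078_at and 1438509_at, of mean signal 8.40 and 4.21, lay at -0.11 and -0.13 without passing.

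None of the 14 genes of the ubiquitous 20S core passed the test, and all but 1 of them differed by less than 0.1 on the log2 scale. That core is made of Psma1 to Psma7 in the alpha ring, which gates the entrance, and Psmb1 to Psmb7 in the beta ring. Differences were negative for 11 of the 14, of which Psmb1 and Psmb7 turned positive after quantile normalization and cyclic loess. The lowest was Psma5 (-0.12, SE 0.046, adjusted p = 0.162), with signals of 10.72, 10.83 and 10.999 (lowest, median, highest) in sleep-deprived and 10.77, 10.95 and 11.03 in undisturbed animals. A nearly equally bright second probe set of Psma5 lay at -0.051. Psma7 had all 8 sleep-deprived animals below the undisturbed mean. They ran from 10.41 to 10.54 within an undisturbed range of 10.36 to 10.70, and the difference was -0.065 (adjusted p = 0.491). Psma1 averaged 10.46 ± 0.140 in sleep-deprived and 10.55 ± 0.0647 in undisturbed animals (-0.091, adjusted p = 0.367). The structural subunits Psma2, Psma3, Psma6, Psmb1, Psmb2 and Psmb3 lay between -0.082 and -0.025, and Psma4 and Psmb4 at 0.0088 and 0.0061.

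The catalytic subunits showed no common direction. Psmb5, which carries the chymotrypsin-like site, had signals of 11.45, 11.60 and 11.79 (lowest, median, highest) in sleep-deprived animals and 11.50, 11.58 and 11.70 in undisturbed animals. Its difference was 0.026 (SE 0.046, adjusted p = 0.803), and the 95% interval ran from 0.953- to 1.09-fold. Psmb6, with the caspase-like site, averaged 10.90 ± 0.0600 in sleep-deprived and 10.95 ± 0.104 in undisturbed animals (-0.049, SE 0.046, adjusted p = 0.597). Psmb7, with the trypsin-like site, averaged 12.23 ± 0.116 in sleep-deprived and 12.24 ± 0.0994 in undisturbed animals (-0.0072, SE 0.053, adjusted p = 0.961), and its sign turned after quantile normalization (0.034) and cyclic loess (0.033). The groups overlapped for all of them. Psmb5 is one of the genes with TGACNNNGC upstream.

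The immunoproteasome subunits Psmb8, Psmb9 and Psmb10 replace those catalytic subunits in cells exposed to interferon, and none was called. Psmb8 averaged 6.22 ± 0.154 in sleep-deprived and 6.27 ± 0.162 in undisturbed animals (-0.056, SE 0.070, adjusted p = 0.709). Psmb10 averaged 9.24 ± 0.0955 in sleep-deprived and 9.29 ± 0.0952 in undisturbed animals (-0.050, SE 0.049, adjusted p = 0.615). Psmb9 was the one with a positive difference (0.069, SE 0.064, adjusted p = 0.600). It ran from 6.47 to 6.94 in sleep-deprived and from 6.35 to 6.75 in undisturbed animals, so that the ranges overlapped widely. Of 9 measured interferon-induced genes of antigen processing, such as the peptide transporter genes Tap1 and Tap2, none passed either, with a median of -0.025. Microglial markers, all 8 measured, averaged 9.15 in sleep-deprived and 9.14 in undisturbed animals and none was called. Psma8, a testis subunit, and Psmb11, a thymus subunit, had mean signals of 4.41 and 4.31, below the 25th percentile of every array, which lay between 4.54 and 4.67. Their differences, 0.0013 and 0.025, say little at that signal.

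In the 19S cap none of 17 genes passed, and 16 had negative differences, 6 of which turned positive after quantile normalization and cyclic loess. Psmd2, a scaffold of the base, came closest. It had signals of 11.36, 11.41 and 11.48 (lowest, median, highest) in sleep-deprived animals and 11.475, 11.54 and 11.60 in undisturbed animals, and 7 of 8 sleep-deprived animals lay below every undisturbed animal. Its log2 difference was -0.11 (SE 0.035, adjusted p = 0.0726), a 1.08-fold lower level. It passed when only genes with a mean signal of at least 6 were tested (adjusted p = 0.0359) and with the trend and robust options of limma (adjusted p = 0.0414). The other scaffold of the base, Psmd1, averaged 10.97 ± 0.0789 in sleep-deprived and 11.05 ± 0.0579 in undisturbed animals (-0.078, adjusted p = 0.314), with 6 of 8 sleep-deprived animals below every undisturbed animal. The ubiquitin receptor Psmd4 averaged 11.08 ± 0.0783 in sleep-deprived and 11.14 ± 0.0624 in undisturbed animals (-0.055, adjusted p = 0.497).

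All 6 ATPases of the base, Psmc1 to Psmc6, had negative differences between -0.14 and -0.017, but Psmc3, Psmc5 and Psmc6 turned positive after quantile normalization and cyclic loess. The lowest was Psmc4, which also had the largest standard error of the 49 genes. Its signals were 10.23, 10.39 and 10.89 (lowest, median, highest) in sleep-deprived and 10.32, 10.65 and 10.92 in undisturbed animals (log2 difference -0.14, SE 0.092, adjusted p = 0.426). Psmc2 averaged 11.33 ± 0.0686 in sleep-deprived and 11.39 ± 0.0379 in undisturbed animals (-0.062, adjusted p = 0.383). Psmc1 averaged 10.69 ± 0.0884 in sleep-deprived and 10.75 ± 0.0565 in undisturbed animals (-0.056, adjusted p = 0.5004). For Psmc6 the brightest probe set averaged 10.38 ± 0.0976 in sleep-deprived and 10.40 ± 0.0520 in undisturbed animals (-0.017, adjusted p = 0.871). Differences were -0.030 for Psmc3 and -0.020 for Psmc5. Of the 8 lid genes 7 had negative differences, of which Psmd6, Psmd13 and Psmd14 turned positive under the same scalings, and Psmd8 had a positive one (0.059, adjusted p = 0.555). Psmd14, the deubiquitinase that removes the chain, averaged 11.81 ± 0.0661 in sleep-deprived and 11.84 ± 0.0675 in undisturbed animals (-0.022, SE 0.040, adjusted p = 0.805). Psmd12, a structural lid gene, averaged 10.10 ± 0.0777 in sleep-deprived and 10.16 ± 0.0590 in undisturbed animals (-0.068, adjusted p = 0.383), and Psmd3, Psmd6, Psmd7 and Psmd13 lay between -0.067 and -0.027. Psmd11, a lid gene with a known role in raising proteasome assembly in stem cells, had the lowest lid value (-0.14, SE 0.049, adjusted p = 0.130). It ran from 11.002 to 11.26 in sleep-deprived and from 11.18 to 11.42 in undisturbed animals, with all 8 sleep-deprived animals below the undisturbed mean.

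**Figure D2:**
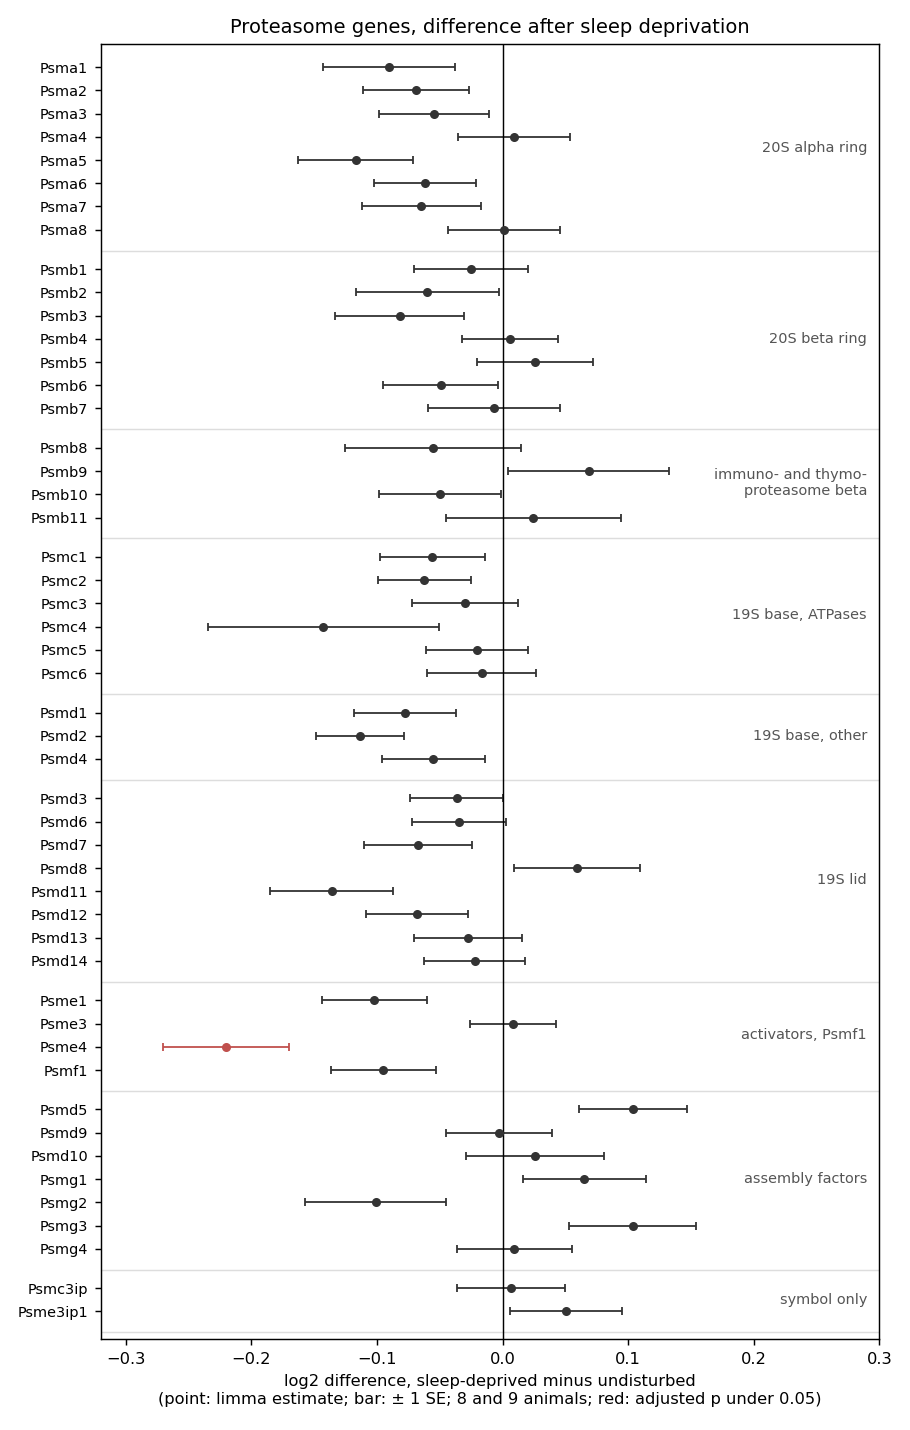
Log2 difference, sleep-deprived minus undisturbed, of the 49 proteasome genes by role, with points for the limma estimate and bars of 1 SE (8 and 9 animals). Psme4, in red, is the only gene with an adjusted p under 0.05, most core and cap genes sit just left of 0, and 5 of 7 assembly factors sit right of it, in the deposited values (signs near 0 turned under other scalings).

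None of the assembly factors, chaperones that join the rings and the base and then leave, was called. Of 7 genes 5 had positive differences, of which Psmg4 turned negative after median centring, and the median of the 7 was 0.026, beside -0.055 for the 31 subunits of the core and cap. The 2 sets differ in mean signal, 8.44 to 9.05 for the assembly factors and 9.56 to 12.24 for the subunits. Other genes with a signal of 8 to 9 had a median of -0.025, and those of the subunits' signal -0.037. Psmd5, a chaperone of the base, had signals of 8.95, 9.09 and 9.28 (lowest, median, highest) in sleep-deprived and 8.94, 9.01 and 9.06 in undisturbed animals, and 6 of 8 sleep-deprived animals lay above every undisturbed animal. Its difference was 0.10 (SE 0.043, adjusted p = 0.190). Psmg3, a chaperone of the alpha ring, averaged 8.72 ± 0.113 in sleep-deprived and 8.62 ± 0.0887 in undisturbed animals (0.10, SE 0.050, adjusted p = 0.273). Psmg1, also a chaperone of the alpha ring, averaged 8.92 ± 0.129 in sleep-deprived and 8.85 ± 0.0544 in undisturbed animals (0.065, adjusted p = 0.501). Psmg2, the binding partner of Psmg1, averaged 8.92 ± 0.141 in sleep-deprived and 9.02 ± 0.0939 in undisturbed animals (-0.10, SE 0.056, adjusted p = 0.344). A nearly as bright Psmg2 probe set, 1448212_at of mean signal 8.70, lay at -0.054. A dim one of mean signal 5.35 lay at 0.23 without passing, and the mean of all Psmg2 probe sets at 0.0245. The base chaperones Psmd9 and Psmd10 lay at -0.0029 and 0.026, with Psmd9 positive after quantile normalization and cyclic loess, and Psmg4 at 0.0092. The dimmer Psmd9 sets 1423387_at and 1447670_at, of mean signal 6.95 and 4.01, lay at 0.14 and -0.25 without passing. Psmc3ip and Psme3ip1 lay at 0.0065 and 0.050 without passing.

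For 2 genes the probe sets disagreed beyond replicate error. The test compared the brightest with each dimmer probe set of the same gene, over 16752 such pairs of which 1.3% were called. The proteasome pairs came from the 103 probe sets of the 49 genes, less the brightest of each gene, and 2 of them passed. How many of all pairs had groups without overlap was not counted. For Psmd11, probe set 1456059_at lay at 0.14 where the brightest, 1437080_s_at, lay at -0.14. Brightest minus dimmer ran from 1.276 to 1.637 in sleep-deprived and from 1.640 to 1.911 in undisturbed animals, with no overlap, and the effects differed by -0.27 (SE 0.057, limma adjusted p over all pairs = 0.0186). Further bright Psmd11 probe sets, 1440253_at and 1429370_a_at, lay at -0.19 and -0.18, on the side of the brightest, and the dim remaining 4, with means from 4.01 to 5.40, lay between 0.0025 and 0.12. This pair was called without any 1 of the 17 arrays.

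For Psmc6, probe set 1417770_s_at lay at -0.23 (SE 0.065, limma adjusted p over all probe sets = 0.0753) while the brightest, 1417771_a_at, lay at -0.017. On 1417770_s_at 6 of 8 sleep-deprived animals, which ran from 9.29 to 9.90, lay below every undisturbed animal, which ran from 9.81 to 10.02. The dimmer 1417769_at lay at -0.27 without passing (adjusted p = 0.196). Brightest minus 1417770_s_at ran from 0.546 to 0.913 in sleep-deprived and from 0.393 to 0.544 in undisturbed animals, again with no overlap. The effects differed by 0.21 (SE 0.052, limma adjusted p over all pairs = 0.0485). This call was narrow: it held in 3 of the 17 fits that left out 1 array, those without undisturbed replicate 5 or sleep-deprived replicate 6 or 8. Which transcripts these probe sets read was not tested.

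**Figure D3:**
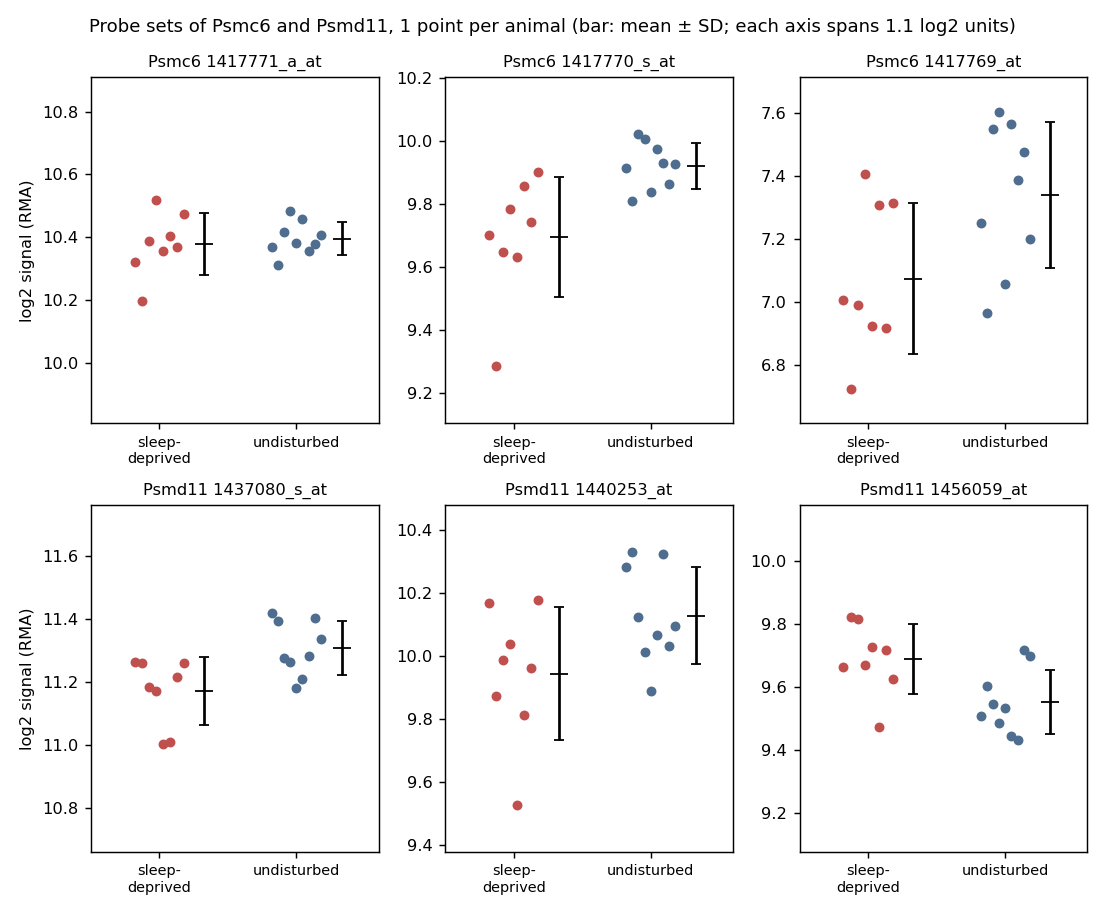
Log2 signal of 3 probe sets each of Psmc6 (upper row) and Psmd11 (lower row) in each animal, sleep-deprived on the left and undisturbed on the right, with mean ± SD (n = 8 and n = 9). The brightest probe set is on the left of each row, and the Psmd11 set on the right runs higher in sleep-deprived animals while the others run lower.

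The proteasome genes as a list lay slightly below 0, as did other genes of their signal. Of the 49 genes 34 had negative differences (27 after quantile normalization, 28 after cyclic loess and 40 after median centring) and the median was -0.037, beside 49.2% negative and a median of 0.0016 over all 18193 genes. Bright genes in general lay lower in these values. Other genes weighted to the members' signal in bins of 1 log2 unit had a median of -0.030 with 65.4% negative. For the 31 subunits of the core and cap, 27 were negative with a median of -0.055, beside -0.037 and 71.1% for other genes of their signal. At an unadjusted p under 0.05 there were 6 lower genes and 1 higher gene among the 49, 14.3% in all, beside 18.6% of all genes (10.9% lower and 7.65% higher). No proteasome gene had groups that did not overlap, which 0.731% of all genes had.

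**Figure D4:**
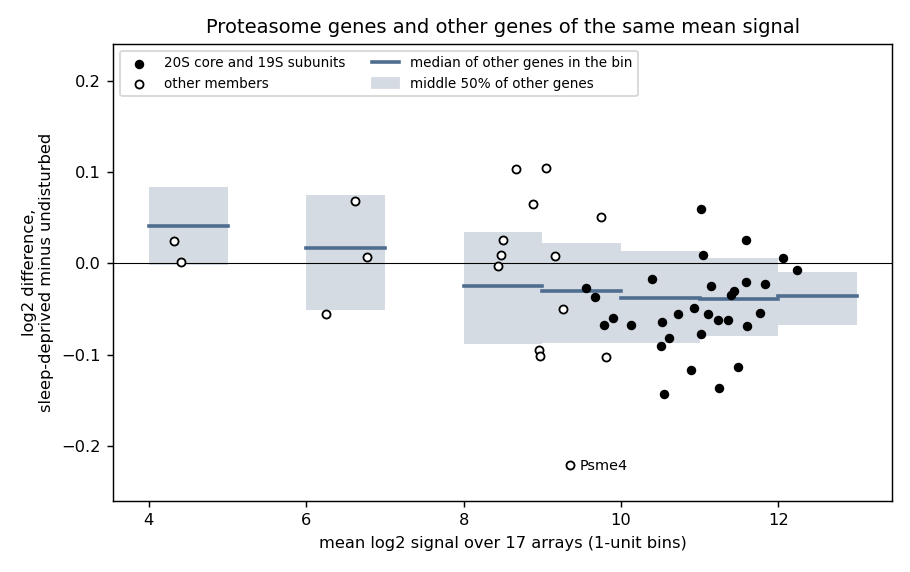
Log2 difference, sleep-deprived minus undisturbed, against mean log2 signal over 17 arrays for the 49 proteasome genes (filled points are the 31 core and 19S subunits, open points the others). Lines give the median and bands the middle 50% of all other genes in the same 1-unit bin, and the medians lie below 0 in each bin shown from a signal of 8 upward.

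The mean of the 14 core genes was 11.12 ± 0.0563 (SD, n = 8) in sleep-deprived and 11.17 ± 0.0641 (SD, n = 9) in undisturbed animals, and 7 of 8 sleep-deprived animals lay below the undisturbed mean. The mean of the 17 genes of the 19S cap was 10.81 ± 0.0501 (SD, n = 8) in sleep-deprived and 10.87 ± 0.0333 (SD, n = 9) in undisturbed animals. Sleep-deprived replicate 2 was the lowest animal for both, at 11.004 and 10.71. Undisturbed replicates 1 and 2 lay below the other undisturbed animals for both. The groups overlapped, and sleep-deprived replicate 4, at 11.21 and 10.87, also lay above several of the other undisturbed animals. The shift depended on the scaling between arrays. After quantile normalization the median of the 31 subunits was -0.021, with 19 of 31 negative, and after cyclic loess it was -0.017, while after median centring it was -0.073 with 29 of 31 negative. Other genes of their signal then lay at -0.0010 after quantile normalization, 0.00061 after cyclic loess and -0.055 after median centring. The gap to them was -0.018 in the deposited values and -0.020, -0.017 and -0.018 under these scalings. It was not stable to other choices: it ran from -0.029 without undisturbed replicate 1 to -0.0063 without undisturbed replicate 9, and was -0.0052 with the most variable probe set. The replicate block, which also left out undisturbed replicate 9, gave the same -0.0063 and is not a separate result. The mean of the neuronal markers was 11.59 in sleep-deprived and 11.67 in undisturbed animals. That of 5 oligodendrocyte markers was 11.90 in sleep-deprived and 11.97 in undisturbed animals, and that of 6 astrocyte markers 11.25 in sleep-deprived and 11.26 in undisturbed animals. None of these was called, while of 5 endothelial markers 1 was called lower. Their part in the list's median was not tested.

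**Figure D5:**
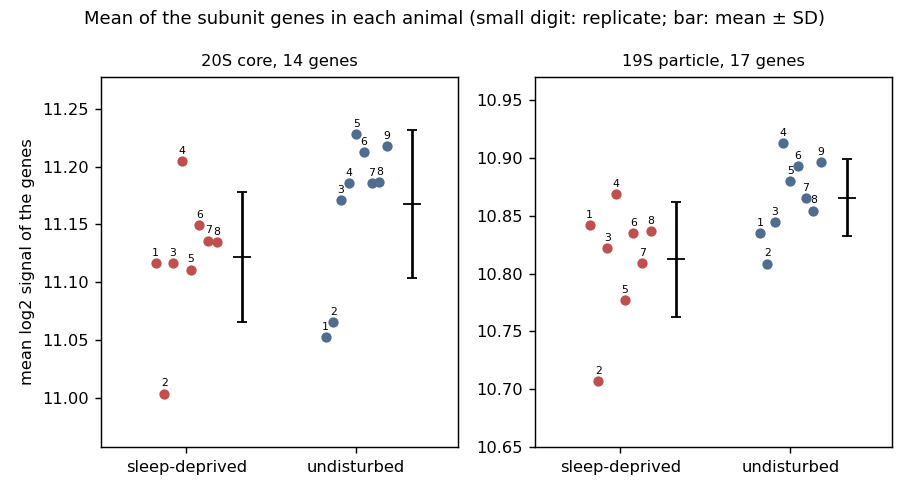
Mean log2 signal of the 14 core genes and of the 17 genes of the 19S cap in each animal, sleep-deprived on the left and undisturbed on the right of each panel, with the replicate number above each point and bars of mean ± SD (n = 8 and n = 9). The ranges overlap, and sleep-deprived replicate 2 is lowest in both panels.

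Around the proteasome, 5 of 81 measured genes of the pathway lists were called, 6.17% beside 3.97% of all genes. Of 11 measured regulators of proteasome gene expression 1 rose and 1 fell. Nfya, a subunit of the CCAAT-binding factor NF-Y, rose without overlap between the groups. It ran from 7.92 to 8.37 in sleep-deprived and from 7.64 to 7.85 in undisturbed animals (log2 difference 0.37, SE 0.050, adjusted p = 0.000251). Its second probe set also passed (0.27, limma adjusted p = 0.0227 at the probe-set level). A dim Nfya probe set of mean signal 5.31 lay at 0.10 without passing (limma adjusted p = 0.563 at that level). Nfe2l3 fell by 0.27 (adjusted p = 0.0402) at a mean signal of only 5.85, and its other probe sets lay at -0.012 and 0.094 without passing. Nfe2l1, the factor that induces proteasome genes when degradation is blocked, lay at 0.020 (SE 0.045, adjusted p = 0.853). Nfe2l2 lay at 0.066 (adjusted p = 0.568).

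Of 16 measured proteasome partners 2 fell and none rose. Zfand5, a zinc finger protein that stimulates the 26S particle, averaged 11.78 ± 0.122 (SD, n = 8) in sleep-deprived and 11.96 ± 0.0483 (SD, n = 9) in undisturbed animals (log2 difference -0.18, adjusted p = 0.0324). Its next brightest probe sets lay at -0.17 and -0.17 without passing. A dim one of mean signal 5.97 lay at -0.27 and passed (limma adjusted p = 0.0170 at the probe-set level). Another of mean signal 5.90 lay at 0.094 and differed from the brightest (limma adjusted p over all pairs = 0.0449). The remaining Zfand5 sets lay at -0.13 and 0.0070 without passing. Txnl1, a thioredoxin-like protein bound to the cap, averaged 10.87 ± 0.0986 (SD, n = 8) in sleep-deprived and 11.03 ± 0.0470 (SD, n = 9) in undisturbed animals (log2 difference -0.16, adjusted p = 0.0404). The next brightest Txnl1 probe sets lay at -0.053 and -0.077 without passing (limma adjusted p = 0.691 and 0.502 at the probe-set level). The cap's deubiquitinases Usp14 (-0.13, adjusted p = 0.321) and Uchl5 (-0.084, adjusted p = 0.456), the maturation factor Pomp (-0.028, adjusted p = 0.760) and the small lid subunit Sem1 (0.022, adjusted p = 0.814) did not pass. Of 28 measured ubiquitin and E2 enzyme genes 1 rose, Ube2g2, an E2 of endoplasmic reticulum degradation (0.15, SE 0.042, adjusted p = 0.0468). The second Ube2g2 probe set lay at 0.19 without passing (limma adjusted p = 0.316 at the probe-set level). None of 17 measured genes of the p97 unfoldase and its cofactors passed, and Vcp itself lay at -0.060 (adjusted p = 0.433). Nfya kept its call without any 1 of the 17 arrays and in all 11 other settings tried. The other calls were not stable. Of the 17 fits without 1 array, the call was lost in 12 for Ube2g2, 10 for Txnl1, 9 for Nfe2l3 and 7 for Zfand5, with adjusted p up to 0.0957, 0.0857, 0.0835 and 0.0596. It was also lost in 6 of 11 other settings for Ube2g2, 5 of 11 for Txnl1, 4 of 10 for Nfe2l3 and 3 of 11 for Zfand5. These include median centring for Ube2g2 (adjusted p = 0.0861) and quantile normalization for Txnl1 (adjusted p = 0.0764).

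Promoter windows from RefSeq were found for 41 of the 49 genes. Within 250 bases upstream, TGACNNNGC stood on either strand in 5 of the 41, or 12.2%, beside 11.5% of 27025 genes with a window. CCAAT, the box bound by NF-Y, stood in 16 of 41, or 39.0%, beside 37.5%, and the longer CCAATC in 9 of 41, or 21.95%, beside 16.6%. In other array genes with a mean signal of at least 9 the shares were 13.8% for TGACNNNGC, 41.1% for CCAAT and 22.8% for CCAATC. The members' shares of these motifs were thus no higher than those of bright genes. CCGGAAG stood in 13 of 41, or 31.7%, beside 7.83% of all genes and 16.2% of other array genes with a mean signal of at least 9. This last motif was chosen after the windows had been read. The 13 genes with CCGGAAG had a median difference of -0.056 and the 28 without it -0.025. The 16 genes with CCAAT had a median of -0.055 and the 25 without it -0.035, but the 9 with the longer CCAATC had a median of 0.0065 and the 32 without it -0.052. The 5 genes with TGACNNNGC had a median of -0.017 and the 36 without it -0.052. These matches describe the letters in the windows only.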

How the data were processed

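Hippocampal RNA of 17 mice was measured on Affymetrix whole-genome mouse arrays, 8 from sleep-deprived and 9 from undisturbed animals. The deposited values are log2 signals that the authors made with RMA in the affy package, per the submitters' processing notes, whose versions the sources used here do not give. This method corrects background, sets all arrays to the same distribution and summarises probes, so a shift shared by most genes cannot be seen. The log2 scale was read from the values, which ran from 2.90 to 14.8, with array medians of 6.14 to 6.22. Precision is limited by how many arrays there are.

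Of 45101 probe sets 64 manufacturer controls were left out. Gene symbols came from GEO's platform annotation: 34945 probe sets had 1 symbol, 932 several and 9160 none. All 49 proteasome symbols matched RefSeq. Each gene took its probe set of highest mean signal, and limma 3.58.1 in R 4.3.3 (lmFit and eBayes, 2 groups, no covariate) was fitted to all 18193 genes, all 45037 probe sets and all 16752 differences between the brightest and a dimmer probe set of a gene. Benjamini-Hochberg adjusted p-values under 0.05 were called, and tests were two-sided. Other genes were weighted to the members' counts in bins of 1 log2 unit of mean signal. The fits were tested on simulated data.

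Members, gene lists and markers were chosen with earlier results of these data known. Values in both groups are given by a stated rule: every called gene, the 8 lowest and 4 highest differences, genes with a called probe set or pair, and genes named for their role. Of the pathway genes, the called ones and some named for their role are given. Replicates are separate animals, and neither scan date nor batch was given. Alternatives were a signal filter, 3 normalizations between arrays, 2 rules for probe sets, eBayes options, array weights, covariates for RNA quality and choroid plexus markers, a replicate block, and leaving out each array.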

Additional observations from a re-analysis of the deposited data

Results flagged for a closer look

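In 98 groups, each of the 49 genes in both groups of animals, the gap between the outermost animal and its nearest neighbour was compared with Dixon's critical value, which chance alone passes in about 1 in 20 groups. It was passed in 5, close to that share. Sleep-deprived replicate 2 was the lowest of its group in 3 of them: Psmb7, a catalytic core subunit, at a log2 signal of 11.97 (the next animal at 12.18, the highest at 12.33), Psmc1, a base ATPase, at 10.49 (10.64 and 10.76), and Psmd12, a lid subunit, at 9.925 (10.06 and 10.17). These 3 genes followed the mean of the other core and cap genes across animals (correlations of 0.76, 0.73 and 0.76), so their flags are not independent. Sleep-deprived replicate 2 also had the lowest mean of the 31 core and cap genes, 10.84. Without it Psmb7 lay at 0.030 and the median of the 49 genes at -0.027. Undisturbed replicate 1 was lowest for Psmb4, a structural core subunit, at 11.92 (12.03 and 12.13), and undisturbed replicate 2 highest for Psmd3, a lid subunit, at 9.792 (9.701 and a lowest value of 9.631).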

How the results depend on the processing

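Psme4 alone was called among the 49 genes in the fits with quantile normalization, median centring, cyclic loess, array weights, either covariate or the replicate block, and in all 17 fits that left out 1 array. The count was 2, with Psmd2 added, when only genes with a mean signal of at least 6 were tested and with the trend and robust options of eBayes, and 0 with the mean of all probe sets or the most variable one. Of the probe sets 3 were called, beside 6 under the signal filter, 6 with the replicate block and 1 with the choroid plexus covariate, and 0 to 3 without single arrays. Pairs of probe sets called were 2, and 1 to 4 without single arrays. The median of the 49 genes was -0.051 to -0.027 without single arrays, and 31 to 40 genes were negative.

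Of the 49 signs 11 turned under quantile normalization, 12 under cyclic loess, 6 under median centring, 6 with the mean of probe sets, 10 with the most variable probe set, and 1 to 6 without single arrays. Among the genes given with values in both groups they turned under quantile normalization and cyclic loess for Psmb7 (0.034 and 0.033), Psmc6 (0.025 and 0.020) and Psmd14 (0.014 and 0.018), under median centring for Psme3 (-0.0094), with the mean of probe sets for Psme3 (-0.078) and Psmg2 (0.0245), and with the most variable probe set for Psmc1 (0.015), Psmd4 (0.083), Psme3 (-0.11), Psmg2 (0.23) and the called Psme4 (0.055). Without single arrays Psmb7 ran from -0.032 to 0.030, Psmb5 from -0.0021 to 0.046 and Psmc6 from -0.037 to 0.0091. The causes were not tested. Replicate numbers 1 to 8 are shared by both groups, and the main fit did not pair animals by number. Correlations of same-numbered animals' deviations ran from -0.16 to 0.39. Without values for differently numbered animals beside them, they cannot settle whether the numbers mark pairs or a shared batch. With the replicate block, which left out undisturbed replicate 9, 913 genes were called, beside 640 without that array and without the block. Psmd11 had an SE of 0.036 with the block, beside 0.049 in the main fit (limma adjusted p = 0.0535 beside 0.130). The block gave Psme4 at -0.22 (adjusted p = 0.0112) and a median of -0.033, the same median as without that array alone.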

Other observations

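With the group means removed, the subunits of the core and the cap varied together across the 17 animals. The median correlation over the 465 pairs of the 31 genes was 0.38, and 83.7% of pairs were positive, beside a median of 0.15 and 64.9% for other genes of similar signal. These values share arrays and their scaling and are given as a description. Against the mean of the other core and cap genes, Psma4, an alpha subunit, had the highest correlation (0.87), followed by the ATPase Psmc3 (0.86) and the beta subunit Psmb1 (0.81). The lid genes Psmd11 (-0.46) and Psmd3 (-0.42), the immunoproteasome subunits Psmb8 (-0.42) and Psmb9 (-0.31) and, weakly, the activator Psme4 (-0.20) had negative correlations. Their classes did not run one way. The immunoproteasome subunit Psmb10 lay at 0.48, the activators Psme1 and Psme3 at 0.61 and 0.31, and Psmf1 at 0.15. Psmb8 and Psmb9 were also dim, with mean signals of 6.25 and 6.63.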
